A study of Mus musculus with 10 samples.

Results

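The genes described here encode the receptors for acetylcholine, noradrenaline and adrenaline, dopamine, serotonin and histamine. They were taken by symbol from the table of gene counts: Chrm and Chrn for muscarinic and nicotinic acetylcholine receptors, Adra1, Adra2 and Adrb for adrenergic receptors, Drd for dopamine, Htr for serotonin and Hrh for histamine receptors. This gave 53 of 24453 genes. Intratelencephalic projection neurons (IT-PNs) were purified by FACS from layer 5 of the right primary motor cortex (M1) of 5 male mice, hemizygous for the (Zfp312-EGFP)CO61GsatMmnc transgene on a Swiss Webster background. The transgene drives GFP from Fezf2 regulatory elements, so GFP reports those elements and not Fezf2 transcript itself. All mice received cholera toxin subunit b (CTB) coupled to a far-red Alexa dye, a retrograde tracer, in left M1 at P23 to 25, and cells were collected at P28 to 32. Cells with GFP and CTB made the Fezf2+ IT-PN library of an animal, and cells with CTB alone its Fezf2- IT-PN library, which gave 5 libraries of each type paired by animal. The comparison asks which receptor genes differ between the 2 IT-PN types.

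Acetylcholine and the monoamines reach the cortex through long, branching axons from small nuclei of the basal forebrain, brainstem and hypothalamus. Most of their receptors are coupled to G proteins: one group acts through Gq and phospholipase C, another lowers cyclic AMP through Gi/o, and another raises it through Gs. Nicotinic receptors and the serotonin receptor built from Htr3 subunits are instead ion channels that open when transmitter binds. In layer 5 pyramidal neurons such receptors are known to set excitability and the pattern of firing.

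Receptor reads were few in every library. The Fezf2+ libraries held 118134, 107643, 118069, 151591 and 203379 gene reads in animals 1 to 5, and the Fezf2- libraries 167916, 89138, 168711, 211368 and 217738. Gene reads were lower in the Fezf2+ library in 4 of 5 animals, and the mean difference of -31211 reads gave p = 0.188 in an exact, two-sided permutation test of the pairs, in which 5 animals cannot reach the 0.05 level. On average fewer cells were sorted for the Fezf2- than for the Fezf2+ libraries, and the part of this in the values that follow was not tested. Of 1553687 gene reads, 296 fell on the 53 receptor genes. The libraries were amplified by PCR and in vitro transcription without molecular identifiers, so reads are not independent molecules and every floor given here covers counting error only. A count of 0 allows up to 3 reads, which was 13.8 CPM (counts per 1e+06 gene reads) in the deepest library, 33.7 CPM in the shallowest and 1.93 CPM over all 10 together.

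Markers of the sorted cells were checked in the same libraries before the receptors. Of 6 neuronal markers 5 had reads, led by Map2, while Nefl was at 0. Their summed level was 457, 687, 229, 363 and 88.5 CPM in Fezf2+ libraries 1 to 5 and 107, 112, 119, 23.7 and 64.3 CPM in the Fezf2- libraries. It was higher in the Fezf2+ library in 5 of 5 animals, although the ranges overlapped. All 5 markers were tested, 4 with a log2 fold change of Fezf2+ over Fezf2- above 0 and a median of 1.62, and edgeR with the animal as a block called 0 and gave 0 an unadjusted p under 0.05. Excitatory markers were led by Camk2a, with 529 of its 588 reads in Fezf2- library 3, and Tbr1 was at 0. Of 8 layer 5 markers, Fezf2 had 1 read in all 10 libraries, in Fezf2+ library 5, Bcl11b had 1 read and Crym had none. Tshz2 held 2661 of the 2702 reads of that list, 2628 of them in Fezf2- library 3. Etv1, known from layer 5 pyramidal neurons, had 4, 2, 3, 1 and 6 reads in Fezf2+ and 3, 2, 1, 1 and 0 reads in Fezf2- libraries (log2 fold change 1.42, SE 1.26, adjusted p = 0.998 in edgeR). Deptor had 13 reads, 9 of them in Fezf2- library 5 (log2 fold change -2.19, SE 2.17), Parm1 had 2 and Foxo1 had 1. In the excitatory and layer 5 lists the direction depended on the measure. Of 3 excitatory markers tested 1 was above 0, with a median log2 fold change of -0.63. The summed CPM of the excitatory list was higher in Fezf2+ in 3 of 5 animals, but in Fezf2- in 3 of 5 without Camk2a. Of 3 layer 5 markers tested 1 was above 0, with a median of -1.98, and their summed CPM was higher in Fezf2- in 4 of 5 animals, but in Fezf2+ in 4 of 5 without Tshz2. The 8 layer 5 markers thus ranged from none to many reads, and the 2 groups are named here by their GFP and CTB sort.

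Microglial markers differed between the types. Their summed level was 245, 177, 93.2, 66.0 and 123 CPM in Fezf2+ libraries 1 to 5, and 6400, 4630, 6820, 1640 and 3960 CPM in the Fezf2- libraries. The ranges did not overlap, Ctss was the marker with most reads, and none of the 11 markers was at 0. With the animal as a block, 0 of 11 passed an adjusted p of 0.1 in edgeR and 10 had an unadjusted p under 0.05, all lower in Fezf2+, though 5 of the 11 entered the test through Fezf2- libraries alone. Without the block 10 were called, and DESeq2 with the block called 9. Microglial markers, lower in Fezf2+, and the list of 6 neuronal markers, with a summed level higher in Fezf2+ in each animal, thus stand beside every receptor value that follows, and the part of either in those values was not tested. In bulk libraries such as these, fewer cells of a type and less RNA per cell cannot be told apart.

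Of the other cell types, astrocyte markers, led by Slc1a2, summed to 369 to 7420 CPM in Fezf2+ and 91.9 to 3790 CPM in Fezf2- libraries, with Gfap at 0. Oligodendrocyte precursor markers, led by Pdgfra, ran from 85.8 to 3220 CPM in Fezf2+ and from 132 to 1120 CPM in Fezf2- libraries. Interneuron markers rested on Adarb2, with 1606 of 1626 reads, while Slc32a1, Pvalb, Vip, Sncg, Htr3a and Lhx6 were at 0. Endothelial and mural markers, led by Flt1, summed to at most 83.6 CPM, with Kcnj8 and Vtn at 0. Markers of cholinergic and monoaminergic cells had 6 reads in all, and Chat, Slc18a3, Th, Dbh, Slc6a2, Slc6a4 and Slc18a2 had none. In these lists, and in the neuronal, excitatory and layer 5 lists, the blocked edgeR fit gave 0 genes an unadjusted p under 0.05 and called 0.

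At least 1 read was found for 22 of the 53 receptor genes (41.5%), against 59.3% of all 24453 genes. By family these were 3 of 5 muscarinic, 8 of 16 nicotinic, 2 of 9 adrenergic, 2 of 5 dopamine, 7 of 14 serotonin and 0 of 4 histamine receptor genes. Reads were found for 14 genes in Fezf2+ and 20 in Fezf2- libraries, 12 of them in both types. When every library was downsampled to 89138 gene reads, the counts were 12 and 13. Over all genes, the mean number with at least 1 read per library was 5644.2 in Fezf2+ and 6447.4 in Fezf2-. The medians ran the other way, at 6255 and 5877. Of the 22 genes, 17 had at least 50% of their reads in a single library, and 7 had 1 read in all. Only Chrm3, Htr1f, Htr2c and Htr4 had reads in 5 or more libraries.

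Without a read in any library were the muscarinic genes Chrm4 and Chrm5 and the nicotinic genes Chrna2, Chrna6, Chrna9, Chrnb1, Chrnb3, Chrnd, Chrne and Chrng. The adrenergic genes Adra1d, Adra2a, Adra2b, Adra2c, Adrb1 and Adrb3 were also at 0. Among dopamine receptors Drd1, Drd4 and Drd5 had no reads, and among serotonin receptors Htr1a, Htr1b, Htr1d, Htr2b, Htr3a, Htr5b and Htr6 had none. The histamine receptors Hrh1, Hrh2, Hrh3 and Hrh4 were all at 0.

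**Figure D1:**
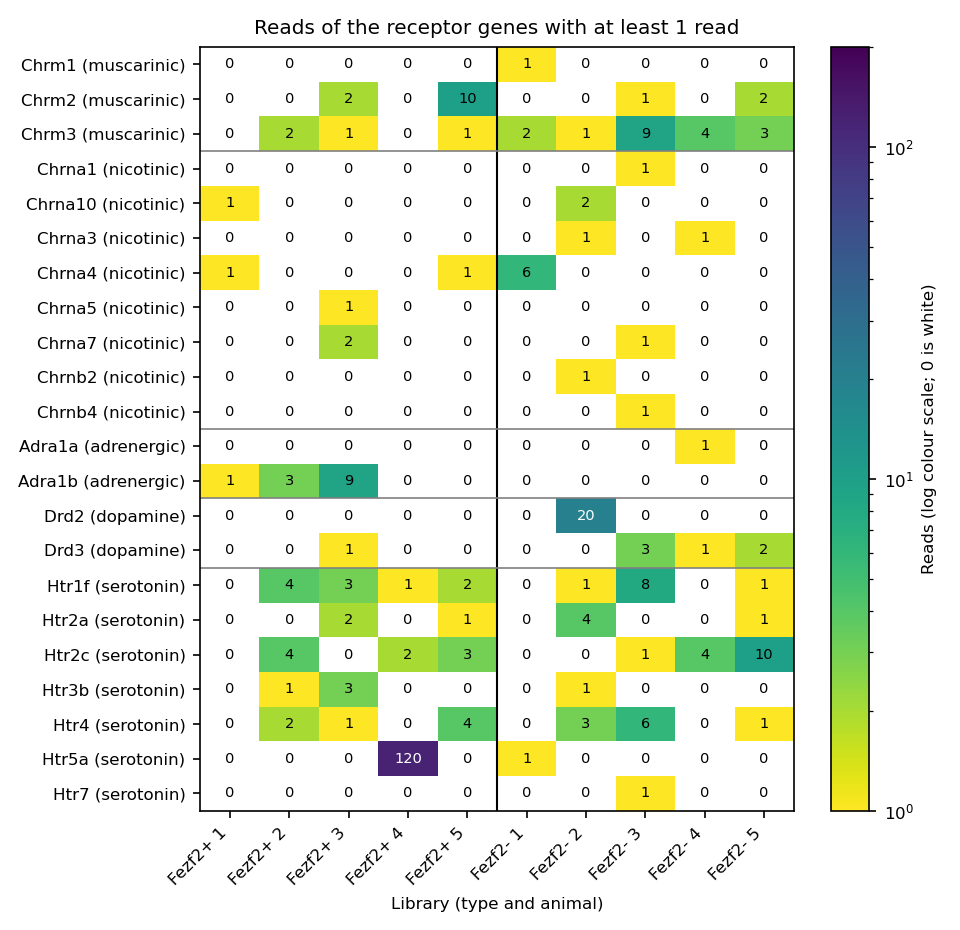
Reads of the 22 receptor genes with at least 1 read, by gene and family (rows) and by library (columns, Fezf2+ left of the line and Fezf2- right of it), with the read number in each cell and a log colour scale. Most cells are 0, and the highest values are 120 reads of Htr5a in Fezf2+ library 4 and 20 reads of Drd2 in Fezf2- library 2.

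Among muscarinic receptors, Chrm3 had 19 of its 23 reads in Fezf2- libraries. Chrm3 (chr13:9875486-10360847, minus strand, GRCm38) encodes a receptor that acts through Gq. It had 0, 2, 1, 0 and 1 reads in Fezf2+ libraries 1 to 5 and 2, 1, 9, 4 and 3 in the Fezf2- libraries. All 5 Fezf2- libraries had reads, 4 of 5 animals were higher in Fezf2-, and the ranges overlapped through animal 2. The log2 fold change of Fezf2+ over Fezf2- was -1.88 (SE 1.35, adjusted p = 0.998 in edgeR).

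Chrm2, a Gi/o-coupled receptor (chr6:36388084-36528414, plus strand), had 0, 0, 2, 0 and 10 reads in Fezf2+ and 0, 0, 1, 0 and 2 reads in Fezf2- libraries. Its reads came from animals 3 and 5 in both types, and in both animals the CPM was higher in the Fezf2+ library. The log2 fold change was 1.59 (SE 1.74, adjusted p = 0.998 in edgeR), and Chrm2 entered the test through Fezf2+ libraries alone. After downsampling the value was 3.25, and in DESeq2 with the block 0.96. The Chrm2 span overlaps 2 other genes of the table, a noncoding RNA and a microRNA, and the sources used here do not state whether strand was used in counting. Chrm1, the main Gq-coupled muscarinic receptor of forebrain pyramidal neurons, had 1 read, in Fezf2- library 1.

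Nicotinic receptor genes gave 20 reads over 8 genes, and none reached the level needed for a test. Chrna4, which with Chrnb2 forms the common high-affinity nicotinic receptor of brain (chr2:181018380-181043546, minus strand), had 1, 0, 0, 0 and 1 reads in Fezf2+ and 6, 0, 0, 0 and 0 reads in Fezf2- libraries. Its reads therefore lay in animals 1 and 5, with 75% of them in Fezf2- library 1. Chrnb2 had 1 read. Chrna7, whose subunit forms channels by itself, had 3 reads, 2 of them in Fezf2+ library 3. Chrna10 also had 3 reads and shares part of its span with Art1, Chrna3 had 2, and Chrna1, Chrna5 and Chrnb4 had 1 each. Chrnb2 shares part of its span with Adar.

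Of the adrenergic receptors, Adra1b had reads in Fezf2+ libraries and none in Fezf2- libraries. Adra1b (chr11:43774606-43901210, minus strand) encodes a Gq-coupled receptor for noradrenaline. It had 1, 3, 9, 0 and 0 reads in Fezf2+ libraries 1 to 5, or 8.46, 27.9, 76.2, 0 and 0 CPM, and 0 reads in all 5 Fezf2- libraries. The types overlapped at 0 in animals 4 and 5. In the summed reads of each type, 13 against the floor of 3, the ratio of Fezf2+ to Fezf2- was at least 5.30. Without animal 3, whose Fezf2+ library held 69.2% of the reads, it was at least 1.58. The observed reads are taken as exact, so this is a bound on the pooled reads and not on the difference between types. Adra1b entered the test only through Fezf2+ libraries 2 and 3, the type in which it was higher, so neither this bound nor its p is independent of the filter. Its unadjusted p was the smallest of the receptor genes tested but not under 0.05, and the adjusted p was 0.998 in edgeR with the block. Without the block the unadjusted p was under 0.05 and the adjusted p 0.148, and over the settings in which one was given the adjusted p ran from 0.148 to 1. In DESeq2 with the block Adra1b had a smaller log2 fold change, an unadjusted p of 0.395 and no adjusted p. Adra1a had 1 read, in Fezf2- library 4.

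Dopamine receptor reads lay mostly in Fezf2- libraries, but not evenly. Drd2, a Gi/o-coupled receptor best known from striatum (chr9:49340627-49408177, plus strand), had 20 reads in Fezf2- library 2 and 0 in the other 9 libraries. Drd3, of the same class (chr16:43754026-43822932, plus strand), had 0, 0, 1, 0 and 0 reads in Fezf2+ and 0, 0, 3, 1 and 2 reads in Fezf2- libraries. Neither had at least 10 CPM in 2 libraries, so neither was tested.

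Serotonin receptors held 196 of the 296 receptor reads, of which 120 were Htr5a reads of a single library. Htr5a, a Gi/o-coupled receptor (chr5:27842149-27855088, plus strand), had 120 reads (792 CPM) in Fezf2+ library 4, 1 read in Fezf2- library 1 and 0 elsewhere. No other gene of the table shares its span. Without Htr5a and Drd2, a choice made after their values were seen, summed receptor reads went from 189 to 69 in Fezf2+ and from 107 to 86 in Fezf2- libraries.

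Htr2c and Htr2a encode Gq-coupled receptors. Htr2c (chrX:146962513-147197277, plus strand) had 0, 4, 0, 2 and 3 reads in Fezf2+ and 0, 0, 1, 4 and 10 reads in Fezf2- libraries. Both types had reads in 3 of 5 libraries, and the log2 fold change was -0.23 (SE 1.5, adjusted p = 0.998 in edgeR). Its span also holds 7 small RNA genes of the table. Htr2a (chr14:74640840-74709494, plus strand) had 0, 0, 2, 0 and 1 reads in Fezf2+ and 0, 4, 0, 0 and 1 reads in Fezf2- libraries, with a log2 fold change of -0.26 (SE 2.61, adjusted p = 0.998 in edgeR). The types overlapped for both genes, and the sign of both changed in at least 1 other setting.

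Htr1f acts through Gi/o and Htr4 through Gs. Htr1f (chr16:64924729-65105854, minus strand) had 0, 4, 3, 1 and 2 reads in Fezf2+ and 0, 1, 8, 0 and 1 reads in Fezf2- libraries, 10 in each type. It was higher in Fezf2+ in 3 animals and in Fezf2- in 1, with a log2 fold change of 0.82 (SE 1.35, adjusted p = 0.998 in edgeR). Without each animal in turn this value ran from 0.39 to 1.58. Htr4 had 0, 2, 1, 0 and 4 reads in Fezf2+ and 0, 3, 6, 0 and 1 reads in Fezf2- libraries, and its log2 fold change of -0.32 (SE 1.59, adjusted p = 0.998 in edgeR) was 0 without animal 2 and above 0 without animal 3. Neither gene separated the types.

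Htr3b encodes an ion channel subunit that needs the product of Htr3a to form a working receptor. Htr3b (chr9:48935008-48964990, minus strand) had 0, 1, 3, 0 and 0 reads in Fezf2+ and 0, 1, 0, 0 and 0 reads in Fezf2- libraries, while Htr3a was at 0 throughout. The log2 fold change of Htr3b was 1.28 (SE 2.26, adjusted p = 0.998 in edgeR). Htr7, a Gs-coupled receptor, had 1 read, in Fezf2- library 3.

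No receptor gene was called between the IT-PN types. Of the 53 genes 8 (15.1%) had at least 10 CPM in at least 2 libraries and were tested, namely Adra1b, Chrm2, Chrm3, Htr1f, Htr2a, Htr2c, Htr3b and Htr4, against 30.3% of all genes. With the animal as a block, edgeR called 0 of the 8 at an adjusted p of 0.1 or below, and 0% of all 7409 genes tested, the smallest adjusted p being 0.993. At an unadjusted p under 0.05 it found 0 of 8, against 288 of all genes (3.89%). In edgeR without the block 279 genes (3.77%) were called and 0 receptor genes, while 1 receptor gene, Adra1b, was among the 1345 (18.2%) with an unadjusted p under 0.05. DESeq2 with the block called 98 of the 1664 genes to which it gave an adjusted p (5.89%), none of them a receptor gene since all 8 were left without one, and its unadjusted p was under 0.05 for 302 genes (4.08%) and 0 receptor genes. In CPM the types did not overlap for 77 of 7409 genes (1.04%) and for 0 of 8 receptor genes. Of the 8, 4 had a log2 fold change above 0 and 4 below, with SE values of 1.35 to 2.61. Each SE of an edgeR fit was derived from the fold change and the F statistic of its test. It is unstable near a fold change of 0 and gives no interval. Missing the threshold does not show that the types were alike. Of the 8, 2 (25%, all genes 20.1%) had at least 10 CPM in libraries of 1 type alone, and these were Adra1b and Chrm2.

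**Figure D2:**
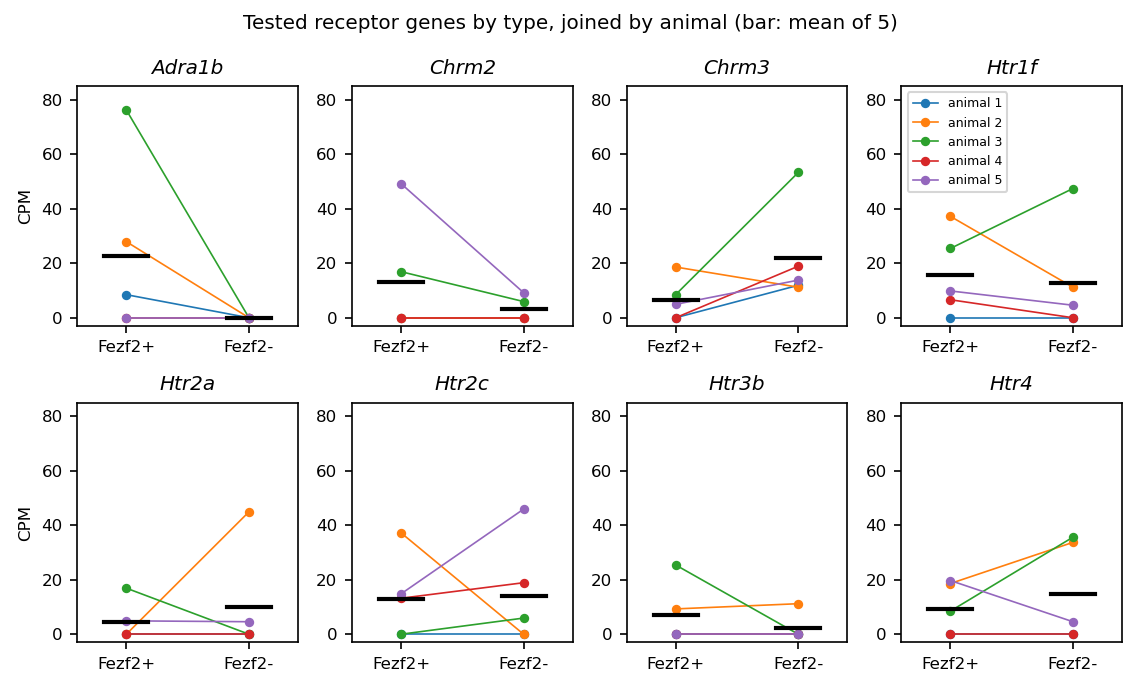
CPM (vertical axis) of the 8 tested receptor genes in the Fezf2+ and Fezf2- library of each animal, with a line joining the libraries of an animal and a black bar for the mean of 5 libraries. Lines run in both directions for most genes, and for Adra1b the 3 animals with reads have them in the Fezf2+ library, the highest at 76.2 CPM.

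Receptor genes with reads had larger gene spans than those without. The distance from gene start to gene end in the GENCODE annotation had a median of 68.2 kb for the 22 genes with reads and 10.7 kb for the 31 without. Of the 16 genes under 10 kb, 1 had reads (6.25%, all genes 29.7%), and of the 24 genes from 10 to 50 kb, 9 had reads (37.5%, all genes 70%). From 50 to 100 kb the count was 4 of 5 (80%, all genes 91.3%), and from 100 kb upward 8 of 8 (all genes 97.5%). The short genes at 0 include Drd1, Htr1a, Htr1b, Adra2a and Chrm4, and the long genes with reads include Chrm3 at 485 kb and Htr2c at 235 kb. Spearman's rho between span and reads was 0.67 across the 53 receptor genes and 0.59 across 23466 genes with a single position, a description of genes that share the same libraries.

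Summed over the libraries, the 12 receptor genes with reads and a span of 50 kb or more had from 0.736 (Adra1a) to 29.6 (Drd2) reads per 100 kb of span. The median was 10.2 reads per 100 kb (quartiles 4.21 and 10.8), and 15.3 (quartiles 5.84 and 47.0) for 4770 such genes of the table. Under 50 kb it was 9 (quartiles 5.14 and 28) for 10 receptor genes with reads. For 9225 such genes of the table it was 35.8 (quartiles 12.9 and 119). The span was examined after the reads had been seen, and the part of span in which receptors had reads was not tested. The paper reports high rates of mapping to introns in both types. The counts do not separate exons from introns, so receptor reads cannot be taken as spliced mRNA, and the part of introns was not tested.

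**Figure D3:**
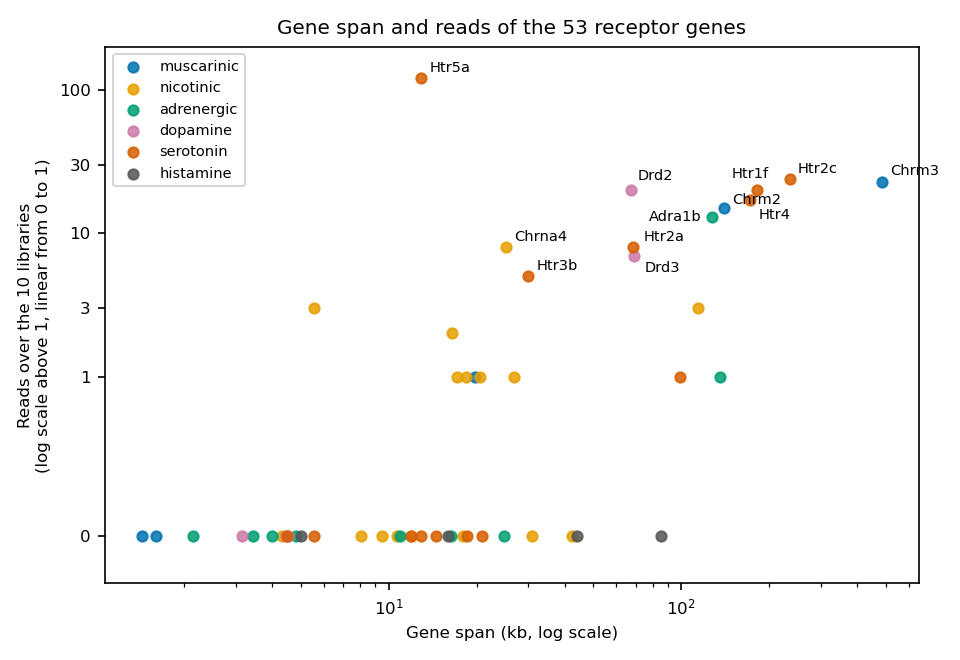
Gene span in kb (horizontal axis, log scale) and reads summed over the 10 libraries (vertical axis, log scale above 1) of the 53 receptor genes, with 1 point per gene coloured by family and names for genes with 5 or more reads. All 8 genes of 100 kb or more have reads, and 15 of the 16 genes under 10 kb have none.

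Among GABA-A receptor subunit genes (Gabr) a larger share had reads. Of 19 such genes 14 had reads (73.7%), with a median span of 88.6 kb, and 9 were tested. The share was 41.5% for the 53 neuromodulator receptor genes, with a median span of 17.1 kb. None of the tested Gabr genes had an unadjusted p under 0.05 either. These are descriptions, and the difference between the families was not tested.

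Genes that act downstream of the receptors or regulate them did not pass the test between types either. Of 93 genes in 6 lists of transduction, regulation and transmitter handling, 73 had reads and 50 were tested, and edgeR with the block called 0. At an unadjusted p under 0.05 it found 1 of the 50 (2%, all genes 3.89%), Ric3, and DESeq2 called 0 of the 19 with an adjusted p (all genes 5.89%). Without the block edgeR called 3 of the 50, beside 3.77% of all genes. These were Adcy5, Dgkz and Rgs10, each with an adjusted p of 0.0931 and lower in Fezf2+. Of the 50, 26 had a log2 fold change above 0 and 24 below, with a median of 0.08, beside -0.16 for all tested genes. Through libraries of 1 type alone 8 of the 50 entered the test, 6 of them through Fezf2-.

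In the Gq arm, from G protein to phospholipase C, inositol trisphosphate receptor and protein kinase C, 8 of 14 genes were tested and 5 were above 0, with a median log2 fold change of 0.38. Gnaq, the Gq alpha subunit, had the most reads, with 14, 104, 367, 5 and 13 in Fezf2+ and 691, 14, 33, 23 and 10 in Fezf2- libraries. Its highest library was Fezf2- library 1 and the types overlapped (log2 fold change 0.37, SE 1.61). Dgkz, a diacylglycerol kinase that ends one branch of this signal, had 336 of its 363 reads in Fezf2- library 5.

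The Gs and Gi/o arm, with G proteins, adenylyl cyclases and protein kinase A subunits, had 19 of 22 genes tested, 12 of them above 0, and a median of 0.48. Adcy5, an adenylyl cyclase, had 1819 of its 1838 reads in Fezf2- library 1, against 0 to 10 in every other library. Among channels opened or closed by these receptors, 5 of 7 genes were tested and 4 were above 0, with a median of 0.78. Their summed CPM was higher in Fezf2+ in 5 of 5 animals, and in 3 of 5 without Kcnq5. Kcnq5, a subunit of the M-current that muscarinic receptors suppress, led them with 84 reads, 50 of these in Fezf2+ library 5. The GIRK subunit genes Kcnj5 and Kcnj9 were at 0. Summed neuronal markers were also higher in Fezf2+ in 5 of 5 animals, and their part in the values of the channel list was not tested.

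Receptor kinases, arrestins and RGS proteins, which end receptor signals, had 12 of 19 genes tested, 4 above 0 and 8 below, with a median of -0.45. Their summed CPM was lower in Fezf2+ in 5 of 5 animals, and in 4 of 5 without Rgs10, the gene with most reads. Rgs10, which is abundant in microglia, had 1, 2, 1, 2 and 4 reads in Fezf2+ and 9, 457, 211, 5 and 1 reads in Fezf2- libraries. Most of its 693 reads thus lay in Fezf2- libraries 2 and 3, and the remaining libraries of both types overlapped (log2 fold change -3.27, SE 1.96, adjusted p = 0.998 in edgeR). The microglial markers given above were higher in the same type, and their part in the values of Rgs10 and of this list was not tested.

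Of 8 accessory proteins of nicotinic receptors 3 were tested, 1 above 0 and 2 below, with a median of -0.37. Ric3, a chaperone that helps nicotinic receptors assemble, had 0 reads in all Fezf2+ libraries and 5, 22, 0, 0 and 0 reads in Fezf2- libraries 1 to 5. In the pooled reads, with the observed reads taken as exact, Ric3 was at least 7.36-fold lower in Fezf2+. This does not bound the difference between types (unadjusted p under 0.05, adjusted p = 0.998 in edgeR), and both types were at 0 in 3 animals. Without animal 2, whose Fezf2- library held 81.5% of the reads, the bound was 1.29-fold. Ric3 entered the test only through Fezf2- libraries 1 and 2, so its bound and p are not independent of the filter. Among 23 genes of transmitter synthesis, transport and breakdown 12 had reads and 3 were tested, all below 0. Their summed CPM was lower in Fezf2+ in 4 of 5 animals, and in 3 of 5 without Hdc. Hdc, which makes histamine, had the most reads, 13 of 14 in Fezf2- library 5. Among 11 genes at 0 were Th, Dbh, Chat, Ache and Slc6a4. Microglial markers were lower in Fezf2+ too, and their part in the values of this list was not tested.

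**Figure D4:**
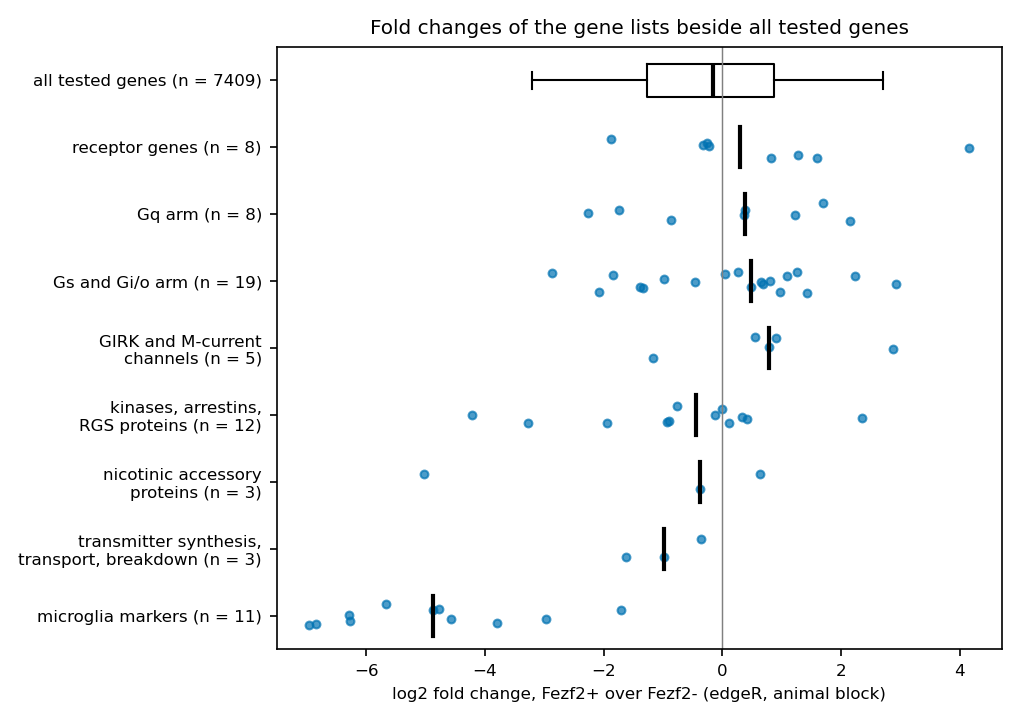
Log2 fold change of Fezf2+ over Fezf2- from edgeR with the animal block (horizontal axis) for all 7409 tested genes (box, quartiles and median; whiskers, the central 90%), for the 8 tested receptor genes, 6 pathway lists and microglial markers (1 point per gene, black bar for the median). The channel list has a median of 0.78, the receptor kinase, arrestin and RGS list one of -0.45, and the microglial markers one of -4.88.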

How the data were processed

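The authors sequenced 3′-biased libraries made with oligo-dT, inline barcodes, PCR and in vitro transcription, aligned reads to mm10 with TopHat2 2.1.1 and deposited raw counts per RefFlat gene from bedtools 2.26.0 multiCov. A read is counted on each gene it overlaps. The authors' table of differential expression (fold changes and p-values) and the spike-in counts were not used. The 10 columns were mapped by label, with 1 library of each type per animal. Counts were filtered at 10 CPM in at least 2 libraries, scaled by TMM and tested with edgeR 4.0.16 (quasi-likelihood, legacy=FALSE) in R 4.3.3. The model held animal and type, with Benjamini-Hochberg adjustment over all 7409 genes and calls at an adjusted p of 0.1 or below. The SE printed for edgeR is the absolute log2 fold change divided by the square root of the quasi-likelihood F. DESeq2 1.42.0 was an alternative. In simulated counts with known changes, all fits recovered most changes at a low spread between libraries. At a spread near that of these data edgeR with the block recovered none, and DESeq2 recovered a minority and also called many unchanged genes. Each spread was drawn once, with the same spread for every gene, no animal effect and large changes in the more abundant genes only. The draws therefore do not show which calls in these data are false or missed. The pairing comes from the labels, which place both types in 1 animal, and same-animal deviations had a mean correlation of 0.028 (different animals -0.007). Gene positions are GENCODE M21, GRCm38. Named receptors were the 10 with most reads, the 4 tested with the smallest p in each direction and, per family, the one with reads in most libraries. In each pathway list the genes with an unadjusted p under 0.05 and the one with most reads were named, and other genes were named after their values were seen. The members and lists were chosen with earlier results of these data known. Some genes of the lists are not reported here.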

Additional observations from a re-analysis of the deposited data

Results flagged for a closer look

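In groups of 5 libraries of 1 type, a library was marked where its gap to the nearest other exceeded the 95% critical value of Dixon's ratio. Chance marks about 1 in 20 groups, and 10 of 30 were marked here, 9 of them among the 24 groups of single receptor genes. A gene with reads in 1 library of a type is always marked, whatever the number of reads.

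A library far from the others was found for Htr5a at 792 CPM in Fezf2+ library 4, which also set the summed receptor level of 811 CPM in that library, and for Htr5a at 5.96 CPM (1 read) in Fezf2- library 1. For Drd2 it was Fezf2- library 2, at 224 CPM. Fezf2- library 2 was also far above the others for Htr2a at 44.9 CPM and Htr3b at 11.2 CPM, the latter being 1 read in the library of lowest depth. Fezf2- library 3 was the highest of its type for Chrm3 at 53.3 CPM and Htr1f at 47.4 CPM. The last were Chrna4 at 35.7 CPM in Fezf2- library 1 and Drd3 at 8.47 CPM, again 1 read, in Fezf2+ library 3. No explanation of these values was tested.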

How the results depend on the processing

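The count of receptor genes called was 0 in each setting in which an adjusted p was given: other scalings, no filter, a stricter filter, downsampling, an adjusted p of 0.05, the legacy method of edgeR (added after the data were seen) and without each animal in turn (0 to 0). With the block the smallest adjusted p of all genes was 0.993, so these counts of 0 say nothing about stability. DESeq2 gave the receptor genes no adjusted p. The count at an unadjusted p under 0.05 was 1 without the animal block and 1 with the legacy method, and 0 without any animal. Pathway list genes called were 3 without the block and 0 without any animal. The unpaired fit changed no other call of a receptor or pathway gene. Other scalings moved the median of all genes by -0.05 and -0.03.

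Receptor genes with reads fell to 7 in Fezf2+ and 8 in Fezf2- libraries at 3 reads or more in a library, and to 13 in Fezf2- libraries after downsampling, by construction. Without each animal they ran from 11 to 14 and from 16 to 20. The mean difference in gene reads ran from -43640 to -24070. Of 90 log2 fold changes of tested receptors in other settings, 85 kept their sign and 5 did not. These were Htr2a at 0.32 in DESeq2 with the block, Htr2c (-1.19 to 0.29 without each animal) and Htr4 (-1.31 to 0.40), and the cause was not tested. With the sign kept, Chrm3 ran from -2.68 to -1.52 without each animal. Downsampling gave -1.44 for Htr2a and -1.13 for Htr4. Without each animal, the lower bound of the pooled ratio for Adra1b ran from 1.58 to 5.57 and that for Ric3 from 1.29 to 7.65 (both added after the data were seen). Genes left under the filter without an animal (Adra1b without animals 2 and 3, for example) have no value there. At 296 reads over 53 genes, a receptor gene at 0 may still be expressed.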
